A study of Rattus norvegicus with 138 samples.

Results

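Serum microRNAs (miRNAs) at 12 mo after implantation were set against those at 1 mo in rats carrying pellets of W, Co, Fe, Cu, Al, Pb or DU, the 7 metals of this comparison. All rats were male Sprague-Dawley, 3 months old at surgery, with 2 pellets in the gastrocnemius of each hind limb and 4 per rat. No unimplanted rats enter the comparison. A further group carried Ta, described as inert in muscle, as the control for surgery, and is used here only as a comparator. Of 138 libraries in the series, 56 belong to the 7 metals at these times, and 54 held at least 20000 miRNA counts: 27 at 12 mo and 27 at 1 mo. Left out were W at 12 mo, replicate 3, with 3789 counts, and Co at 1 mo, replicate 1, with 12213. The design text gives 8 rats per group, bled at every time. The labels number samples within a group from 1 to 4 without naming rats, so each p measures the spread between these samples. Time since implantation, the age of the rats and any processing run shared by the libraries of one month cannot be told apart.

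A miRNA is cut from the 5′ or 3′ arm of a hairpin and binds messenger RNAs mainly through its seed, bases 2 to 8. Serum holds miRNAs released by liver, blood cells, vessel walls, muscle and other tissues, carried in vesicles or bound to protein. A serum level therefore sums release and clearance over many tissues, and fewer contributing cells and less RNA per cell cannot be told apart. miR-122 makes up most of the miRNA of hepatocytes, miR-140 is the classical cartilage miRNA, miR-146a and miR-146b damp NF-kappaB signalling, and miR-351, miR-503, miR-322 and miR-542 come from neighbouring hairpins on the X chromosome. miR-122-5p, miR-16-5p, miR-451-5p and miR-223-3p, common in serum, had counts in all 54 libraries.

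The mature sequences below, from RefSeq (GRCr8) with the seed in capitals, are shown for leading miRNAs and for families whose members changed together or apart. RefSeq entries were matched for 24 of the 29 named miRNAs. The first group rose at 12 mo:
miR-122-5p: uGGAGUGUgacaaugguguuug
miR-122-3p: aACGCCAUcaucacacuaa
miR-101b-3p: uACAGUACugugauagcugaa
miR-378a-3p: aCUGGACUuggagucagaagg
miR-375-3p: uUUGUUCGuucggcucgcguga
The second group fell, and its last pair, miR-146b-5p and miR-146a-5p, shares the seed GAGAACU:
miR-140-3p: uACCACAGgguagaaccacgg
miR-351-3p: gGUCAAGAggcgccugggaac
miR-423-5p: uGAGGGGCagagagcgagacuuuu
miR-503-5p: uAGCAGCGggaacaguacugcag
miR-146b-5p: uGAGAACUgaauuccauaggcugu
miR-146a-5p: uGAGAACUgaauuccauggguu
The third group shares the seed CCCUGAG, and its first member fell while the other members rose:
miR-351-5p: uCCCUGAGgagcccuuugagccuga
miR-125a-5p: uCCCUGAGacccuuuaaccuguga
miR-125b-5p: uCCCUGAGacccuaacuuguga

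Libraries of 12 mo were shallower. Totals had a lowest, median and highest of 159861, 549799 and 2225353 counts at 12 mo and 463512, 1462181 and 3743726 at 1 mo, and the mean log2 total was lower in 6 of 7 metals (difference -1.10, permutation within metal, two-sided, p = 4e-05). The number of miRNAs detected ran 124, 191 and 246 at 12 mo and 154, 217 and 267 at 1 mo. It was lower by 27.9 miRNAs on average (permutation p = 0.00128) and by 19.3 with every library thinned to 159861 counts (permutation p = 0.00301), in 7 of 7 metals both times. The log2 ratio of miR-451-5p to miR-23a-3p, an index of red cell RNA, had medians of -2.04 at 12 mo and -2.22 at 1 mo (p = 0.349). miR-122-5p took a median of 11.3% of a library at 12 mo and 2.26% at 1 mo (p = 1e-05, the smallest the 100000 permutations can give). miR-191a-5p took 12.6% at 12 mo and 23.9% at 1 mo (p = 7e-04), and the let-7 family 11.9% at 12 mo and 6.97% at 1 mo (p = 0.00436). The permutation p-values of 8 such measures were adjusted together, and that of the let-7 share became 0.00581.

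Averaged over the 7 metals with equal weight, 73 of 283 miRNAs tested (25.8%) differed at an adjusted p under 0.05 in edgeR's quasi-likelihood test. Higher at 12 mo were 19 (6.71%), led by liver miRNAs, and 54 (19.1%) were lower, led by miR-140-3p, miR-150-3p and miR-351-3p. The unadjusted p was under 0.05 for 110. The median log2 change over all 283, which include 62 whose change could not be estimated, was -0.45, with 187 below 0 and 96 above. This centre moves with the scaling: it was -0.22 with RLE size factors, where 35 rose and 46 fell, and -0.24 unscaled, where 30 rose and 40 fell. All 24 miRNAs named here as leading (12 that rose, 12 that fell, by smallest p) kept direction and call under both. Among the 76 miRNAs with a count in all 54 libraries, 9 rose and 23 fell, with a median of -0.26. With log2 library total as a covariate, which shares much of its variation with month, 12 rose and 26 fell. With every library thinned to 159861 counts, 197 miRNAs could be tested, of which 27 rose and 45 fell. Of the 73 calls 60 were kept there, and all 24 leading miRNAs stayed called. What part depth had in the calls was otherwise not tested. With W and Co left out, 25 rose and 29 fell.

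Agreement among metals was counted from each metal's own fitted change. Of the 73 called miRNAs, 33 had the direction of the mean in all 7 metals, 30 in 6, 9 in 5 and 1 in 4 or fewer. Over all 283 tested, 41 (14.5%) had 7 of 7, and 108 (38.2%) had 6 or 7 of 7. Of the 12 leading risers 5 moved alike in 7 metals and 7 in 6, and of the 12 leading fallers 10 moved alike in 7 and 2 in 6. Since the metals' own values make up the mean, this agreement describes the calls and does not test them. The 12 mo and 1 mo libraries of a metal did not overlap in 197 of 1981 miRNA-by-metal pairs (9.94%), and for 18 miRNAs (6.36%) this was so, in the direction of the mean, in 3 or more metals.

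**Figure D1:**
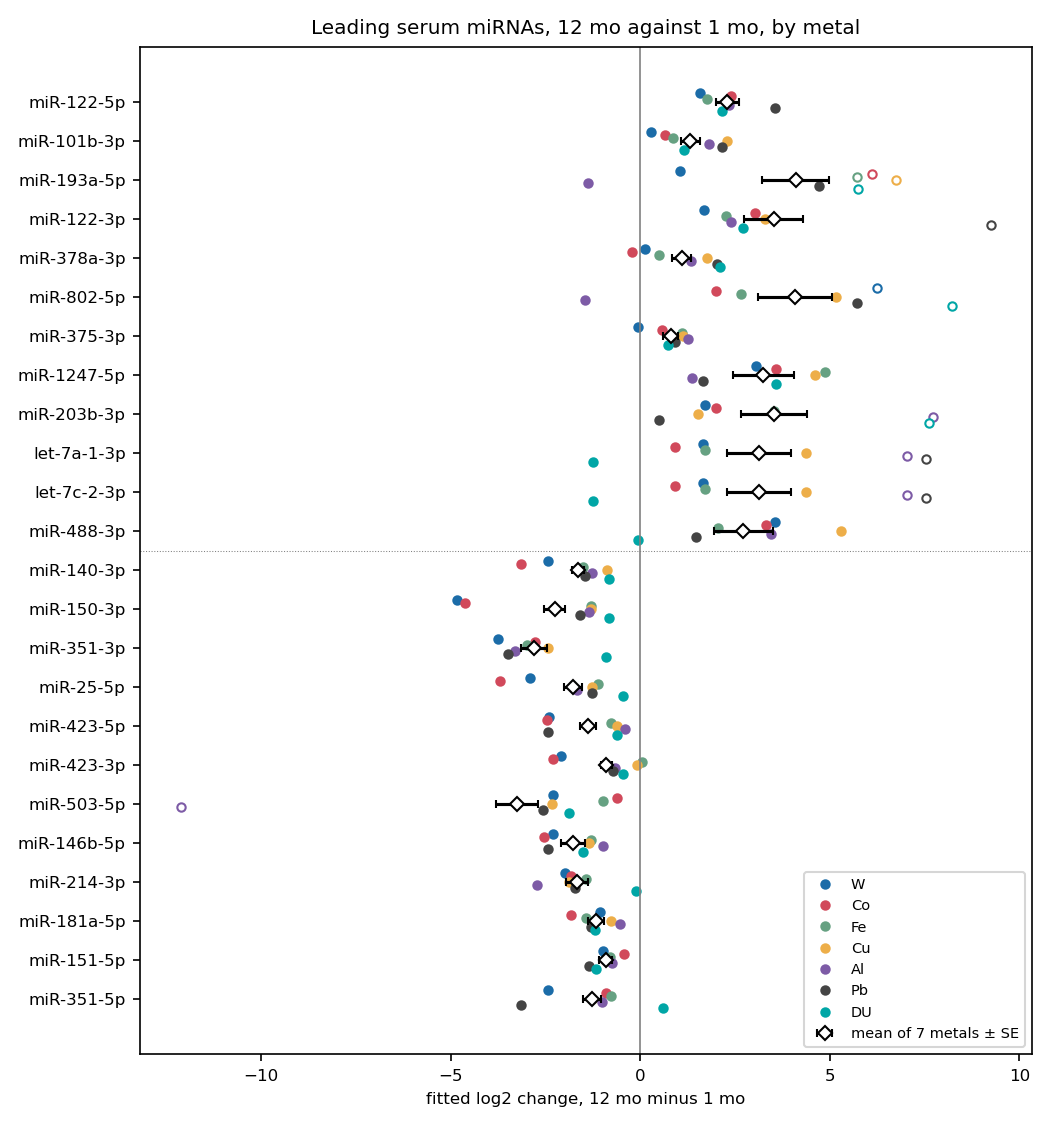
Fitted log2 change (12 mo minus 1 mo) of the 12 leading risers, above the dotted line, and the 12 leading fallers, below it. Circles are the 7 metals, open where all libraries of 1 month had no count so that the position depends on the model's prior, and diamonds are the mean of the 7 metals ± SE. miR-122-5p lies right of 0 in 7 of 7 metals and miR-140-3p left of 0 in 7 of 7.

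Liver miRNAs led those that rose. miR-122-5p ran at 8293, 97768 and 348908 CPM (lowest, median and highest; CPM is the count per 1e+06 counts of the library, TMM-scaled) over the 27 libraries at 12 mo, against 2220, 20518 and 61588 at 1 mo. The ranges overlapped, but within Co, Al, Pb and W every 12 mo library lay above every 1 mo library. Its change was 2.30 ± 0.30 (log2 ± SE, adjusted p = 4.93e-08), between 1.57 in W and 3.55 in Pb, and the median at 12 mo was 4.77 times that at 1 mo. The other arm of its hairpin, miR-122-3p, was detected in 20 of 27 libraries at 12 mo and 16 of 27 at 1 mo, with medians of 79.6 CPM at 12 mo and 9.20 CPM at 1 mo (adjusted p = 0.000652, 7 of 7 metals). miR-101b-3p, abundant in liver among other tissues, had medians of 518 CPM at 12 mo and 260 CPM at 1 mo (1.32 ± 0.25, adjusted p = 6.08e-05, 7 of 7). miR-802-5p, a liver and pancreas miRNA, was detected in 15 libraries at 12 mo and 6 at 1 mo (adjusted p = 0.00134, 6 of 7). Of the 9 liver list members tested 4 rose and none fell, with a median of 1.27, where 6.71% of all miRNAs tested rose and the median of all was -0.45. With RLE size factors and unscaled, 6 rose. Of the rest, miR-192-5p changed by 0.55 (adjusted p = 0.0546), miR-194-5p by 1.27 (adjusted p = 0.0588), miR-148a-3p by -0.22 and miR-101a-3p, which shares the seed of miR-101b-3p, by -0.45. Among the 4 that rose, miR-122-5p and miR-122-3p come from the same hairpin. This list and those below were chosen with earlier results of these data known, so their shares describe the lists and do not test them.

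**Figure D2:**
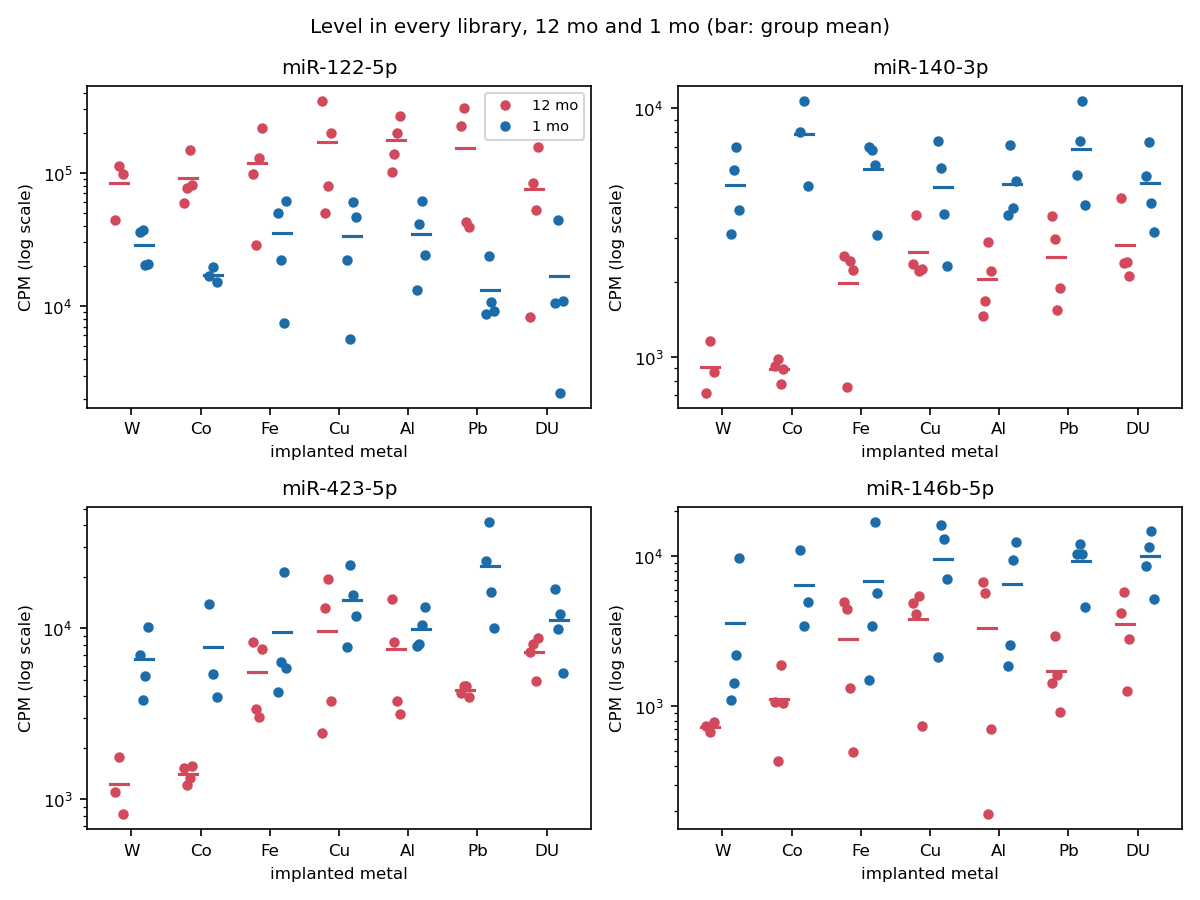
CPM (log scale) of miR-122-5p, miR-140-3p, miR-423-5p and miR-146b-5p in each library, with 12 mo (red) left of 1 mo (blue) for each metal and bars at group means. miR-122-5p is higher at 12 mo in every metal's mean, and the other miRNAs are lower in every metal's mean.

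Other risers came from metabolic and endocrine lists. miR-378a-3p, encoded in the gene of the mitochondrial regulator PGC-1beta, had 476, 4312 and 25108 CPM (lowest, median, highest) at 12 mo and 372, 1994 and 3851 CPM at 1 mo, and changed by 1.09 ± 0.26 (adjusted p = 0.00125, 6 of 7). Its per-metal change ran from -0.23 in Co and 0.12 in W to 2.04 in Pb and 2.12 in DU. miR-375-3p, the main miRNA of pancreatic islets, had medians of 710 CPM at 12 mo and 433 CPM at 1 mo (0.81 ± 0.20, adjusted p = 0.00134, 6 of 7). With log2 library total as a covariate both lost the call, miR-378a-3p at 0.66 (adjusted p = 0.174) and miR-375-3p at 0.62 (adjusted p = 0.0798). The other leading miRNAs that lost it there were miR-1247-5p at 2.54 (adjusted p = 0.116) and miR-151-5p at -0.46 (adjusted p = 0.0808), and 20 of 24 stayed called.

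The remaining leading risers were rare miRNAs that more libraries contained at 12 mo although these libraries were shallower. Detected, out of 27 libraries each, were miR-1247-5p in 23 at 12 mo and 12 at 1 mo (adjusted p = 0.00171), miR-488-3p in 22 at 12 mo and 14 at 1 mo (adjusted p = 0.00627), miR-193a-5p in 17 at 12 mo and 7 at 1 mo (adjusted p = 0.000516) and miR-203b-3p in 17 at 12 mo and 12 at 1 mo (adjusted p = 0.00186). let-7a-1-3p and let-7c-2-3p, identical in sequence and in all counts and so 1 measurement, were detected in 17 at 12 mo and 10 at 1 mo (adjusted p = 0.00415). miR-193a-5p and miR-802-5p lost the call without Al at 12 mo, replicate 2, and miR-802-5p also without W at 12 mo, replicate 1. The let-7 pair lost it without DU at 12 mo, replicate 1. Each of these libraries held its metal's only count at 12 mo, and without it the contrast could not be estimated.

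One riser was missed by the equal-weight test. That contrast could not be estimated for 62 of the 283 miRNAs, because some metal had no count at either month or because groups of zeros lay on opposite sides, and none of the 62 was called. miR-378b, which shares its family name with miR-378a-3p, was detected in 21 of 27 libraries at 12 mo and 5 of 27 at 1 mo. It was absent from W at both times (0 of 3 libraries at 12 mo and 0 of 4 at 1 mo) and present in 2 of 4 Co libraries at 12 mo at a mean of 1.28 CPM, whereas at that time Fe averaged 30.3 CPM, Cu 48.6 CPM, Al 62.6 CPM, Pb 97.6 CPM and DU 130 CPM. With a single month term common to the metals, its change was 5.57 (edgeR, adjusted p = 2.71e-06), and limma on log2 CPM gave 2.99 ± 0.38 (adjusted p = 3.1e-08). In the 7 metals at 1 mo it reached at most 3.91 CPM. Ta went the other way: 0 of 4 libraries held it at 12 mo and 4 of 4 at 1 mo, at a mean of 28.1 CPM (edgeR, adjusted p within Ta 0.0212). These levels are scaled in the fit with Ta. miR-378b is named here because of these values, after they were seen. With the common term 18 miRNAs rose and 47 fell in all, and 8 of those 47 were among the 62.

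Many fallers come from the X-chromosomal hairpins from Mir450a1 to Mir322, of which 12 miRNAs were tested and 10 could be estimated. Of the 12 tested, 7 fell, where 19.1% of all miRNAs tested fell. Below 0 lay 11 of the 12, and miR-450b-3p was the only one above, at 0.99. Over all 283 tested 187 lay below 0, and both counts include miRNAs whose change could not be estimated. miR-351-3p ran at 0, 507 and 4174 CPM (lowest, median, highest) at 12 mo, against 256, 4034 and 6931 CPM at 1 mo. In Co, Fe, Cu, Al and Pb no 12 mo library reached the lowest 1 mo library, while W and DU overlapped. The change was -2.80 ± 0.35 (adjusted p = 1.55e-08), with DU at -0.90 and the other metals between -3.75 and -2.42. miR-503-5p, which restrains the cell cycle in muscle and endothelium, had counts in 18 of 27 libraries at 12 mo and 27 of 27 at 1 mo, at medians of 55.5 CPM at 12 mo and 339 CPM at 1 mo (adjusted p = 1.25e-05, 7 of 7). All 4 Al libraries had 0 at 12 mo, against 1152, 368, 263 and 339 CPM at 1 mo. miR-351-5p fell by 1.28 ± 0.24 (adjusted p = 5.85e-05, 6 of 7, DU at 0.60), and miR-322-3p had medians of 1864 CPM at 12 mo and 4865 CPM at 1 mo (-1.20 ± 0.24, adjusted p = 0.000128). miR-542-3p was detected in 8 libraries at 12 mo and 22 at 1 mo, and miR-450a-5p in 15 at 12 mo and 22 at 1 mo. miR-503-3p fell by 0.68 (adjusted p = 0.0169, 5 of 7).

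All 3 cartilage miRNAs tested fell, where 19.1% of all miRNAs tested fell. The other list member, miR-140-5p, did not pass the count filter. miR-140-3p ran at 716, 2208 and 4346 CPM (lowest, median, highest) at 12 mo and 2320, 5386 and 10720 CPM at 1 mo, and changed by -1.64 ± 0.16 (adjusted p = 2.52e-11, 7 of 7), the smallest p of the comparison. The 2 months did not overlap in 5 metals. In Co it had 923, 984, 781 and 891 CPM at 12 mo, against 8029, 10720 and 4883 CPM at 1 mo. miR-455-3p, co-expressed with miR-140 in chondrocytes, was detected in 11 libraries at 12 mo and 24 at 1 mo (adjusted p = 0.0234), and miR-455-5p in 2 at 12 mo and 11 at 1 mo (adjusted p = 0.00405).

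Of 8 leukocyte miRNAs tested, 6 fell and none rose, with a median of -0.94, where 19.1% of all tested fell and the median of all was -0.45. Unscaled, 4 fell. miR-146b-5p ran at 189, 1421 and 6705 CPM at 12 mo and 1090, 7083 and 16913 CPM at 1 mo (-1.77 ± 0.31, adjusted p = 1.9e-05). miR-146a-5p had medians of 2452 CPM at 12 mo and 8863 CPM at 1 mo (-1.55 ± 0.32, adjusted p = 0.000175). miR-181a-5p, which sets T-cell receptor thresholds, had medians of 778 CPM at 12 mo and 1854 CPM at 1 mo (-1.16 ± 0.21, adjusted p = 3.46e-05). These 3 moved alike in 7 of 7 metals. miR-342-3p changed by -0.99 (6 of 7), miR-150-5p, a lymphocyte miRNA, by -0.90 (5 of 7) and miR-142-5p by -0.65 (7 of 7). The granulocyte miRNA miR-223-3p had medians of 385 CPM at 12 mo and 419 CPM at 1 mo (0.03 ± 0.25, adjusted p = 1). miR-155-5p went the other way, at 0.80, and was not called. The other arm of the miR-150 hairpin, miR-150-3p, also fell, with medians of 98.2 CPM at 12 mo and 332 CPM at 1 mo (-2.25 ± 0.27, adjusted p = 8.15e-09).

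Further leading fallers came from several hairpins. miR-423-5p, a frequent plasma miRNA, had 816, 3980 and 19369 CPM at 12 mo and 3836, 10090 and 41833 CPM at 1 mo (-1.38 ± 0.21, adjusted p = 1.66e-06, 7 of 7). miR-25-5p fell by 1.77 ± 0.24 (adjusted p = 1.24e-07), while its 3' arm miR-25-3p, which is far more abundant, changed by -0.24 (adjusted p = 0.363). miR-214-3p, of fibroblasts and stellate cells, reached at most 418 CPM at 12 mo and 901 CPM at 1 mo (-1.66 ± 0.30, adjusted p = 2.58e-05). miR-151-5p fell by 0.91 ± 0.17 (adjusted p = 5.78e-05, 7 of 7). miR-423-3p fell by 0.89 ± 0.15 (adjusted p = 8.42e-06, 6 of 7), and without W and Co its change was -0.17 (adjusted p = 0.523). Other equal-weight means also leaned on W and Co. Without them miR-25-5p changed by -0.95, miR-423-5p by -0.75, miR-150-3p by -1.05 and miR-140-3p by -1.004. All of these stayed called there (edgeR, adjusted p at most 0.0338). Of the leading fallers only miR-503-5p fell further without W and Co, at -3.74.

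The other lists were mixed or quiet. Their calls are read against all miRNAs tested, of which 6.71% rose and 19.1% fell. None of 5 muscle miRNAs tested was called, of which 3 could be estimated: miR-206-3p, a marker of regenerating muscle, changed by 1.13 (adjusted p = 0.0701), miR-1-3p by 0.49 and miR-133a-3p by -0.73. With RLE scaling and unscaled, 1 muscle miRNA rose. None of 9 let-7 miRNAs was called (median 0.19), though 3 rose with RLE scaling and 3 unscaled. Of 7 red cell miRNAs, miR-144-3p, miR-144-5p and miR-185-5p fell, while miR-451-5p changed by -0.33 (adjusted p = 0.386) and miR-16-5p by -0.19. Unscaled, 2 of the 7 fell. Of 6 platelet and endothelium miRNAs, miR-126a-3p, miR-126a-5p and miR-191a-5p fell, whereas under RLE scaling 1 fell and 1 rose, and unscaled 1 fell. Of 11 epithelium miRNAs, miR-429 and miR-182 rose, and 4 rose with RLE scaling. Of 8 miRNAs tested from the Dlk1-Dio3 cluster on chromosome 6, 3 could be estimated, and all 3 lay below 0. Of these 2 fell, miR-541-5p (detected in 11 libraries at 12 mo and 22 at 1 mo) and miR-134-5p (3 at 12 mo and 16 at 1 mo). With the common month term 5 of the 8 fell.

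The remaining lists are small, and their calls are read against the 25.8% called over all miRNAs tested. Among 7 fibroblast miRNAs (median -0.20) miR-214-3p fell and none rose, but with RLE scaling and unscaled 2 rose and 1 fell. miR-143-3p was the call among 4 smooth muscle miRNAs (median -0.93) and miR-375-3p that among 3 pancreas miRNAs (median 0.42). In the miR-99, miR-100 and miR-125 list 2 of 5 rose and 1 fell, and in the miR-17-92 list 1 of 10 rose and 1 fell. Of 4 in the miR-378 and miR-103 list 1 rose and 1 fell, the fall being lost with RLE scaling and unscaled. Of 5 inflammation miRNAs the miR-146 pair fell, and 1 rose with RLE scaling and unscaled. Of 6 HOX-cluster miRNAs, 3 of which could be estimated, 2 fell. Of 4 miR-30 miRNAs miR-30e-5p fell, though not with RLE scaling or unscaled. No call was made among 6 miRNAs of the miR-23, miR-27 and miR-24 clusters and 2 of the miR-26 family. None was made among 6 p53-induced miRNAs, 3 of which could be estimated, and 2 rose with RLE scaling and unscaled. Of 7 brain miRNAs 2 could be estimated, so that the absence of calls says little about that list. The part of other cell types in the changes was not tested.

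Members of a seed family moved together in some cases and apart in others. Of 28 seeds shared by several tested miRNAs, 4 had more than 1 called member. The pair miR-146a-5p and miR-146b-5p (GAGAACU) fell, as did miR-181a-5p and miR-181b-5p (ACAUUCA), whereas miR-181c-5p and miR-181d-5p were not called. The family CCCUGAG was the only one called both ways: miR-351-5p fell, while miR-125a-5p changed by 0.63 and miR-125b-5p by 0.59, each in 5 of 7 metals. The 2 arms of 71 hairpins were both tested. They had the same sign in 50, and in the 10 where both were called they moved alike. The log2 ratio of the 5p to the 3p arm (median over libraries, with 2 as the prior count) was lower at 12 mo in 7 of 7 metals for miR-146b (9.03 at 12 mo and 11.28 at 1 mo), miR-503 (-3.66 at 12 mo and -1.99 at 1 mo) and miR-145 (-2.72 at 12 mo and -2.23 at 1 mo). It was higher in 7 of 7 for miR-351 (0.22 at 12 mo and -1.30 at 1 mo), and also for the rare miR-455 and miR-542, whose median ratio at 12 mo was 0. These ratios were not tested. The mean change of miR-146b-3p could not be estimated, so the miR-146b ratio cannot tell a shift between arms from the fall of miR-146b-5p.

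Taken metal by metal, 3 or 4 libraries a group called few miRNAs. Pb had 5 rises (1.77%) and 7 falls (2.47%), 4.24% of 283 in all, W 10 falls (3.53%), Co 6 falls (2.12%), Al 3 falls (1.06%) and Fe, Cu and DU none, where 21, 33 and 34 had an unadjusted p under 0.05 and DESeq2 called 0, 5 and 8. These counts rest on single libraries. Leaving out 1 library at a time gave 1 to 11 calls in W, 4 to 8 in Co, 1 to 6 in Al, 2 to 14 in Pb and 0 or 1 in Cu. W had 1 call without W at 12 mo, replicate 1, 2 without W at 12 mo, replicate 4, and 4 without Cu at 1 mo, replicate 1, or Al at 1 mo, replicate 3. Pb had 2 without Pb at 1 mo, replicate 1 or 2. Al had 1 when any of 13 libraries was left out, 4 of them its own. The 31 calls across metals became 19 without Pb at 12 mo, replicate 2, or without Pb at 1 mo, replicate 2, and 20 without W at 12 mo, replicate 2, or without Al at 1 mo, replicate 3. In Pb miR-122-5p had 224461, 306721, 42700 and 39268 CPM at 12 mo, against 8754, 23936, 10671 and 9095 CPM at 1 mo (3.55 ± 0.82, adjusted p = 0.00841), with let-7f-5p up by 1.92 (adjusted p = 0.0346). In Al miR-503-3p fell by 2.64 (adjusted p = 0.00883). In W miR-150-3p had 17.6, 10.3 and 8.41 CPM at 12 mo, against 282, 379, 262 and 456 CPM at 1 mo (adjusted p = 0.000494). Co gave 10.1, 35.1, 22.1 and 22.8 CPM at 12 mo, against 793, 646 and 213 CPM at 1 mo (adjusted p = 6.49e-05).

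A test of differences between the 7 metals called 3 of 283 (1.06%; 29 at an unadjusted p under 0.05, and DESeq2 called 16). They were miR-423-3p, miR-30d-5p and miR-150-3p, each at adjusted p = 0.0293. miR-150-3p changed by -4.82 in W and -4.61 in Co but by -1.59 to -0.83 in the other 5 metals, and miR-423-3p by -2.08 and -2.29 against -0.71 to 0.06. At 12 mo the mean of miR-150-3p was 15.1 CPM in W and 26.3 CPM in Co, between 138 and 186 CPM in Fe, Cu, Al, Pb and DU, and 25.9 CPM in Ta (scaled in the fit with Ta). The 12 mo means of miR-423-3p were 458 CPM in W and 414 CPM in Co, between 1198 and 1839 CPM in the other 5 metals, and 363 CPM in Ta. Those of miR-25-5p were 41.3 CPM in W and 35.6 CPM in Co, between 202 and 255 CPM in the other 5, and 52.9 CPM in Ta. For miR-140-3p they were 1161.5 CPM in W and 1031 CPM in Co, between 1953 and 3134 CPM in the other 5, and 802 CPM in Ta. For miR-423-5p they were 1563 CPM in W and 1617 CPM in Co, between 5426 and 10188 CPM in the other 5, and 1682.5 CPM in Ta. At 12 mo the means of all these miRNAs in W and Co thus lay near that of Ta and below the other metals. This was looked at after the values were seen, and single libraries overlapped. Of the 288 miRNAs in the fit with Ta, 0 had every W and Co library below every library of the other 5 metals at 12 mo. Only miR-30d-5p had every one above. The labels give no batch, and a part of one was not tested. miR-30d-5p changed by 0.32 in W and 1.12 in Co, and by -1.02 to -0.24 elsewhere. W at 12 mo was also deep, at 1269637 to 1490019 counts, while the other groups at 12 mo other than Co ran from 159861 to 1078901, and its part was not tested. None of the 3 calls stayed with RLE or no scaling, with log2 total as a covariate, or without any of W at 12 mo replicates 1 and 4, Co at 12 mo replicates 1, 3 and 4, W at 1 mo replicate 4 and Co at 1 mo replicates 2 and 3. Without W at 12 mo, replicate 2, miR-423-3p alone stayed, and without Co at 1 mo, replicate 4, miR-30d-5p was lost.

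The same change was then set against Ta. The 7 metals less Ta differed for 3 of 288 miRNAs tested (1.04%; 26 at an unadjusted p under 0.05, DESeq2 26), all of the miR-30 family, which is broadly expressed in differentiated tissue. miR-30d-5p had medians in the 7 metals of 3051 CPM at 12 mo and 3666 CPM at 1 mo. In Ta it had 3693, 4195, 4521 and 5366 CPM at 12 mo, against 1854, 697, 1234 and 1813 CPM at 1 mo. It changed by -0.07 in the metals and 1.67 in Ta, a difference of -1.74 ± 0.36 (adjusted p = 0.0027), with no overlap between the months in Ta. miR-30e-5p differed by -2.54 ± 0.55 and miR-30a-5p by -2.26 ± 0.50 (both adjusted p = 0.00307), while miR-30c-5p differed by -2.11 ± 0.63 (adjusted p = 0.105). All 3 calls were lost without Ta at 1 mo, replicate 3, 5 were made without Ta at 12 mo, replicate 4, and 12 with W and Co left out. miR-30a-5p was also lost without Ta at 12 mo, replicate 1, and without Ta at 1 mo, replicate 2. Without the low-count filter none of the 3 stayed called, and unscaled miR-30d-5p lost its call.

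**Figure D3:**
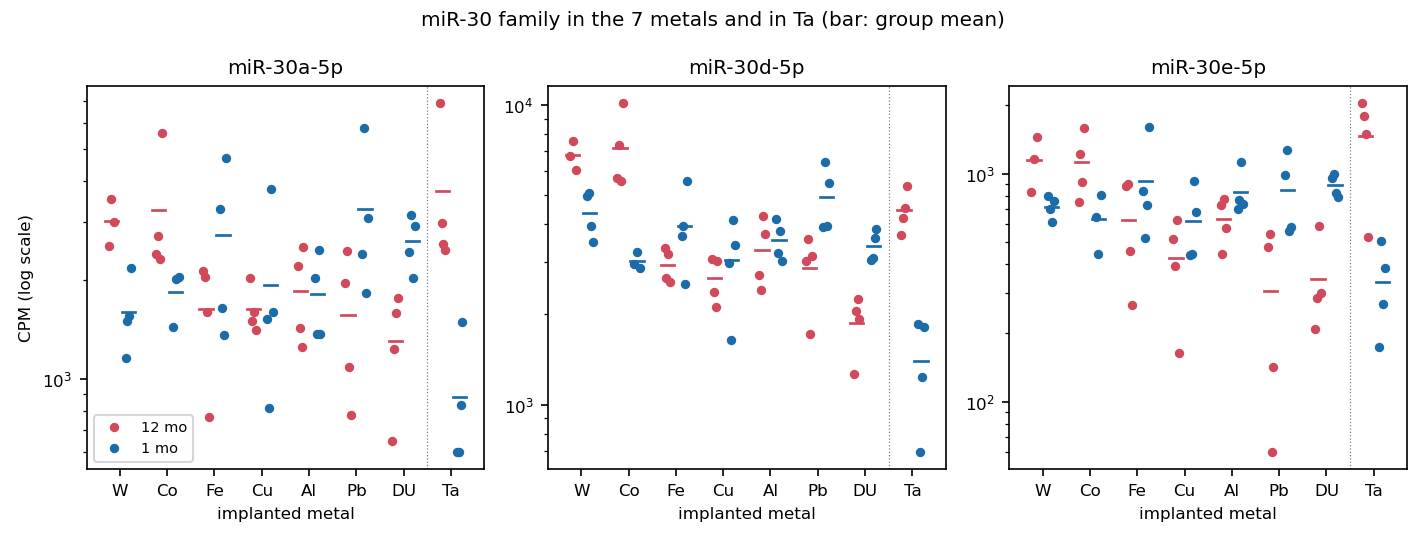
CPM (log scale) of miR-30a-5p, miR-30d-5p and miR-30e-5p in each library of the 7 metals and Ta, 12 mo (red) left of 1 mo (blue), bars at group means, scaled in the fit with Ta. The months overlap in Fe, Cu and Al for each of the 3, and in Ta every 12 mo library lies above every 1 mo library.

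Ta alone was also changed between the months: 11 rose (3.82%) and 10 fell (3.47%), 7.29% of 288. miR-122-5p changed by 2.45 ± 0.32 in the 7 metals and by 2.75 ± 0.83 in Ta (adjusted p within Ta 0.0297). The difference of -0.30 ± 0.84 had an adjusted p of 1, which does not show that they act alike. miR-140-3p changed by -1.42 ± 0.16 in the 7 metals and by -2.85 ± 0.44 in Ta (adjusted p within Ta 7.07e-06), and the difference of 1.44 ± 0.45 missed the threshold (adjusted p = 0.113). miR-351-3p changed by -2.57 in the 7 metals and -2.86 in Ta. miR-423-5p changed by -1.19 in the 7 metals and -2.28 in Ta (adjusted p of the difference 0.645).

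At the times between, miR-122-5p stepped up, while miR-140-3p and miR-351-3p were already low at 3 mo. Scaled over all libraries of the series with at least 20000 counts, medians over the 27, 26, 27 and 27 libraries of the 7 metals at 1, 3, 6 and 12 mo were 22627, 45236, 46284 and 101712 CPM for miR-122-5p. For miR-140-3p they were 5491, 1351, 1925 and 1942 CPM. For miR-351-3p they were 3800, 0, 1203 and 514 CPM, with counts in 27, 10, 24 and 26 libraries. miR-181a-5p ran at 1830, 1747, 1135 and 896 CPM and was the only leading faller whose 4 medians were in falling order. Among the 12 leading risers the 4 medians never fell with time in 7, which include miR-122-5p and the identical let-7 pair. All of the 7 but miR-122-5p were absent from most libraries at 1 mo. Their medians therefore began at 0 and could not fall from there, so that the order says little for them. These levels come from another scaling than those above and were not tested.

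**Figure D4:**
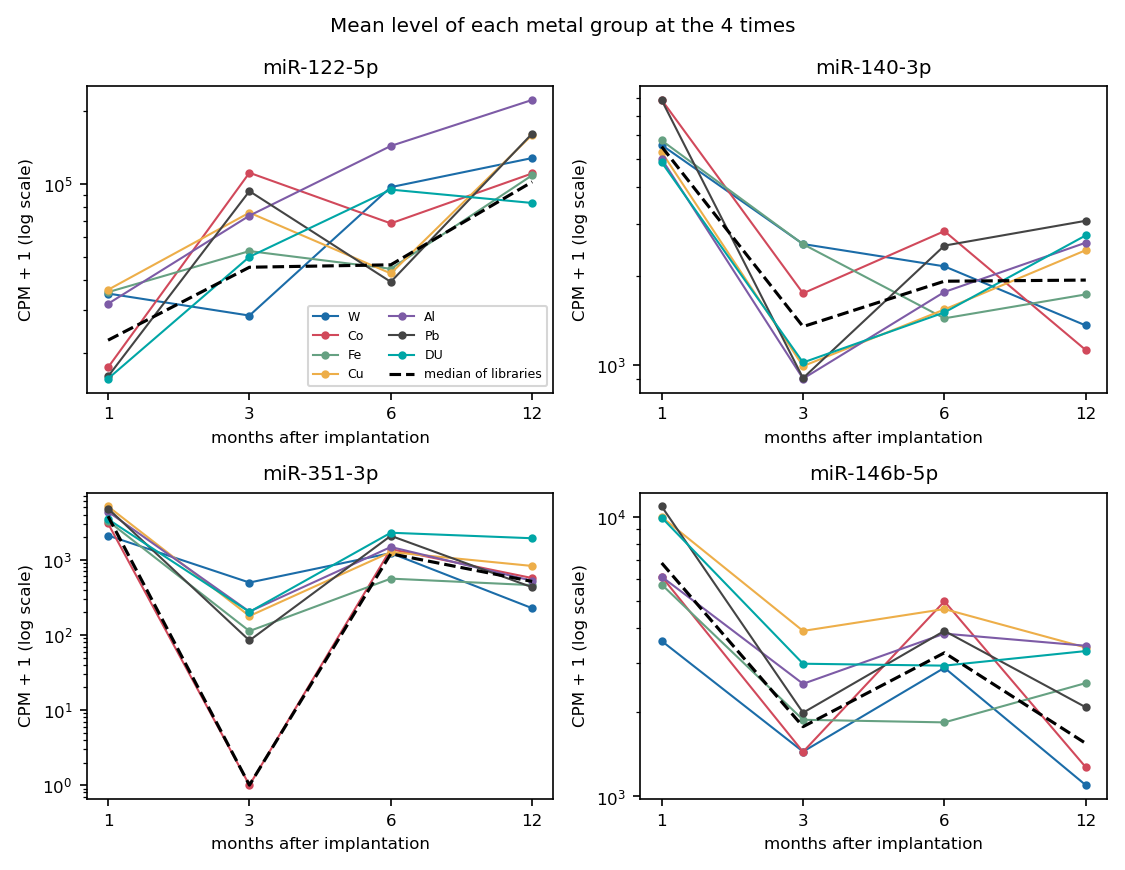
Mean CPM + 1 (log scale) of each metal's libraries at 1, 3, 6 and 12 mo after implantation, with months evenly spaced, for miR-122-5p, miR-140-3p, miR-351-3p and miR-146b-5p. The dashed line is the median over libraries, which ends at 101712 CPM for miR-122-5p and lies lowest at 3 mo for miR-140-3p and miR-351-3p.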

How the data were processed

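Small RNA was sequenced from rat serum with a Norgen library kit on a NextSeq 500, per the labels' protocols. The authors deposited raw read counts for 471 miRNAs in 138 libraries. The submitters' processing notes name Rnor 6.0. Which aligner, counting tool and miRNA annotation were used is not stated in these sources. Depth per library is given in the report. Counts of 54 libraries with at least 20000 counts were fitted with edgeR 4.0.16 in R 4.3.3 (filterByExpr minimum count 10 and minimum total 15, TMM scaling, quasi-likelihood F test) with 1 mean for each of the 14 metal-by-month groups, and 283 miRNAs were tested. The contrast averaged the 7 metals' changes with equal weight. p-values were adjusted by Benjamini-Hochberg over all miRNAs tested, with a threshold of 0.05. A fit with 8 Ta libraries gave the difference from Ta. CPM values are scaled by TMM. limma 3.58.1 and DESeq2 1.42.0 served as alternatives.

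Named miRNAs are the 12 with the smallest p in each direction, up to 2 per direction in each metal, up to 5 in each test of differences, and members of described lists. The members and the 23 lists were chosen with earlier results of these data known. Same-numbered libraries of a metal did not deviate together: 1 of 26 pairs correlated over 0.1 (median -0.03, highest 0.10), so numbers were not used to pair samples. No pair of libraries of one group agreed within sampling noise (lowest chi-square per degree of freedom 134 over 78 pairs). Counts were simulated for 283 miRNAs with the same level and change in each of the 7 metals, and the count filter then dropped some. In the mean of the 7 metals, 11 of 28 true 2-fold changes, 17 of 27 4-fold changes and 5 of 205 unchanged miRNAs were called. The 5 false calls were a larger share of all calls made than the threshold of 0.05. The simulation holds no differences between metals, so these rates need not hold for the real counts. Sequences are from RefSeq (GRCr8), matched by name for 259 of 283 miRNAs.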

Additional observations from a re-analysis of the deposited data

Results flagged for a closer look

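In 168 groups of 4 libraries checked (12 leading miRNAs, the library total and the number detected), 9 libraries stood apart from the other 3 (5.36%), where chance flags about 1 in 20. Their values in CPM were as follows. miR-101b-3p was 225 in Co at 12 mo, replicate 1 (others 477 to 518). miR-140-3p was 3702 in Cu at 12 mo, replicate 2 (others 2217 to 2354), and 757 in Fe at 12 mo, replicate 2 (others 2230 to 2536). miR-25-5p was 280 in Pb at 1 mo, replicate 3 (others 560 to 564). miR-146b-5p was 735 in Cu at 12 mo, replicate 4 (others 4144 to 5463), and 4558 in Pb at 1 mo, replicate 4 (others 10329 to 12161). miR-151-5p was 1888 in Fe at 12 mo, replicate 3 (others 959 to 1034). The library total of Al at 12 mo, replicate 2, was 589967 counts (others 214246 to 252421). Cu at 1 mo, replicate 3, held 263 miRNAs (others 202 to 212).

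The change between months differed between the 7 metals for miR-423-3p, miR-30d-5p and miR-150-3p in edgeR's test (adjusted p = 0.0293 each). It differed between the 7 metals and Ta by -1.74 for miR-30d-5p, -2.54 for miR-30e-5p and -2.26 for miR-30a-5p on the log2 scale.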

How the results depend on the processing

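For the 24 leading miRNAs, 558 of 575 values under other settings kept direction and call, 17 lost the call and 0 changed sign. Of 1296 values without 1 library, 1291 kept both. miR-122-3p, miR-122-5p, miR-140-3p, miR-146b-5p, miR-150-3p, miR-181a-5p, miR-25-5p, miR-351-3p, miR-423-5p, miR-488-3p and miR-503-5p kept both throughout. Counts moved more. The 19 that rose became 35 with RLE size factors, 30 unscaled, 40 with DESeq2, 10 with all groups of the series in the fit, 35 with Ta as an 8th metal, 29 without W, and 17 to 27 without 1 library. The 54 that fell became 26 with all groups in the fit and 47 to 59 without 1 library. Settings chosen after seeing the data gave 12 that rose and 26 that fell with log2 total as covariate, 31 that rose with miR-122-5p and miR-191a-5p left out of the totals, and 29 that fell without W and Co, where 43 of the 73 calls were kept among 234 miRNAs tested. The 31 calls within metals became 60 unfiltered, 111 with DESeq2, 2 with all groups in the fit, 19 with miR-122-5p and miR-191a-5p left out of the totals, and 19 to 33 without 1 library. The 3 differences between metals became 0 with RLE, unscaled, with all groups, with robust dispersion, with log2 total and with those miRNAs left out of the totals, 11 unfiltered, 16 with DESeq2, and 0 to 3 without 1 library. The 3 differences from Ta became 5 unfiltered and 26 with DESeq2. They became 0 with libraries under 20000 counts kept and 0 with all groups in the fit. Without W and Co there were 12, and without 1 library 0 to 5. None of the 3 miR-30 calls was among the 5 unfiltered ones (edgeR, adjusted p = 0.11 for miR-30a-5p and miR-30e-5p, 0.246 for miR-30d-5p). Unscaled, miR-30d-5p lost its call (edgeR, adjusted p = 0.113). With the replicate block by metal and number, 7 rose, 28 fell, 7 calls were made within metals, 0 between metals and 0 against Ta; with a block common to all metals, 20 rose, 52 fell, and 0 differed between metals. In 4 of 26 pairs the library correlated best with its own number, and the labels do not say whether a number marks the same rat. The cause of these moves was not tested. With every library thinned to 159861 counts, 197 miRNAs could be tested, 27 rose and 45 fell, and 60 of the 73 calls were kept.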
